A study of Mus musculus with 28 samples.

Results

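Of the 24877 places in the genome of mouse olfactory neurons where a CTCF peak was found in both deposited CTCF libraries, 8248 (33.2%) held no peak of Rad21, a subunit of cohesin, in either of the 2 Rad21 libraries. These 8248 CTCF regions without Rad21 are described here. A CTCF region is a set of peaks linked by an overlap of at least 1 base that holds a peak of both CTCF libraries, on chromosomes 1 to 19, X and Y. A further 9143 regions (36.8%) held a peak of both Rad21 libraries and serve as the comparison. Between these classes lay 7193 regions (28.9%) with a peak of the second Rad21 library only and 293 (1.18%) with a peak of the first only. The members were chosen by the absence of a called Rad21 peak, so that the share of CTCF regions without Rad21, and their distance from Rad21 peaks, are descriptions and carry no test.

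The study mapped chromatin proteins by chromatin immunoprecipitation and sequencing in mature olfactory sensory neurons, which detect odorants in the nose and each express 1 odorant receptor gene. The CTCF (2), Rad21 (2) and control Ldb1 (3) libraries came from neurons of OMP-IRES-GFP mice, in which the promoter of Omp, a marker of mature olfactory neurons, drives GFP. Ldb1, a cofactor that binds DNA through partners such as Lhx2, was also mapped in Lhx2 KO neurons (2) and in Olfr1507+ cells of M28-IRES-GFP mice (2), which express the odorant receptor Olfr1507. The Lhx2 KO mice carried OMP-IRES-Cre, which acts in mature neurons, together with the floxed allele Lhx2fl/fl and the reporter Rosa-CAG-tdtom+/fl. The labels give neither the age of the ChIP animals nor say whether each library stands for its own animals. A p-value here therefore rests on the agreement between libraries, which may be technical replicates. Peak lists hold no expression values, so the identity of the sorted cells was not checked against markers.

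CTCF is a zinc finger protein that recognises a long, directional DNA motif. Cohesin is a ring-shaped complex, closed by its kleisin subunit Rad21, that is thought to extrude chromatin loops until it is halted at CTCF bound in the right orientation. The sites that carry both proteins are known as the anchors of chromatin loops and the borders of domains.

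The deposited lists held 27609 and 34210 CTCF peaks and 10487 and 28151 Rad21 peaks. The first Rad21 list covered 9436 CTCF regions (37.9%) and the second covered 16336 (65.7%). With the second Rad21 list limited to the length of the first, 56.1% of the CTCF regions had no Rad21 peak. A region without a Rad21 peak is therefore one where neither list called a peak, which is not a measurement of 0 cohesin. No read numbers come with the lists, so the depth behind a peak is unknown.

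Members at gene starts are shown first, with part of the promoter sequence that lies in or beside each region. The stretches printed here are 120 bases within the 250 bases before a gene start, around the CTCF motif or, where there is no match, up to the start. They come from the RefSeq promoter table of GRCm38.p6 and are written 5′ to 3′ on the gene's strand. Capitals mark a match to a core of the CTCF motif, CCA, any 2 bases, AG, any 2 bases and GGC, searched on both strands (in the Vps18 stretch the match is on the opposite strand). The first 4 stretches are members with the match (Rpl38, a ribosomal protein gene; Rint1, a gene of vesicle transport; Ext2, a heparan sulphate polymerase gene; Cldn1, a tight junction gene), the next 2 are members with no match to it or to a looser form (Psmd6, a proteasome subunit gene, and Dpp8, a peptidase gene), and the last 2 lie in regions that held both Rad21 peaks (Adprhl2, an ADP-ribosyl hydrolase gene, and Vps18, a gene of vacuolar sorting). Each set holds the regions of its kind with the highest mean CTCF rank.
Rpl38, chr11:114668404-114668523, plus strand: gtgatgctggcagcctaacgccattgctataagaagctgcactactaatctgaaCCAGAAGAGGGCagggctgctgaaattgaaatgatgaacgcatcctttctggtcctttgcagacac
Rint1, chr5:23787573-23787692, plus strand: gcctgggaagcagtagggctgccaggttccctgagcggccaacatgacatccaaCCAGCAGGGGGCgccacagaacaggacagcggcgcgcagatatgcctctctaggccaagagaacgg
Ext2, chr2:93822569-93822688, minus strand: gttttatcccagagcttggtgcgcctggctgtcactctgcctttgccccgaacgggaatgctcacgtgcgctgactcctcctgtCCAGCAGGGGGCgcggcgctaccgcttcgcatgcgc
Cldn1, chr16:26371843-26371962, minus strand: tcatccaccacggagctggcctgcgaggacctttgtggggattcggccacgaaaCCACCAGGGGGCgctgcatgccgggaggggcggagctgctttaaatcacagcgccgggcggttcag
Psmd6, chr14:14120946-14121065, minus strand: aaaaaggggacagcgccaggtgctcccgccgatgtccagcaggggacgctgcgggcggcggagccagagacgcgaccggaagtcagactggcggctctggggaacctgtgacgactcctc
Dpp8, chr9:65032338-65032457, plus strand: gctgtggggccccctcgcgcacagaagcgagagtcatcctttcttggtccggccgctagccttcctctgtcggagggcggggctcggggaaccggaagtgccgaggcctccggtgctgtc
Adprhl2, chr4:126321704-126321823, minus strand: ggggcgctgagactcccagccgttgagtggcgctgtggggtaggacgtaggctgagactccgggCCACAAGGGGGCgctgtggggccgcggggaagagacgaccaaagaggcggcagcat
Vps18, chr2:119288609-119288728, plus strand: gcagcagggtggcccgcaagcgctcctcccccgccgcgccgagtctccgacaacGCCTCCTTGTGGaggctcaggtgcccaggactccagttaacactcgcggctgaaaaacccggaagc

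The members printed with the core match had CTCF scores of 65 and 132 at Rpl38, 57 and 161 at Rint1, 48 and 194 at Ext2, and 54 and 83 at Cldn1, in the first and the second CTCF library. Scores are the authors' own values per peak and served here to rank the peaks of each list. Psmd6, without an exact match, had scores of 90 and 233, and Dpp8 had 75 and 219. The regions with both Rad21 peaks reached 142 and 318 at Adprhl2 and 102 and 339 at Vps18. The nearest Rad21 peak of the second library lay 28.4 kb from the Rint1 region, 4.07 kb from the Rpl38 region and 0.794 kb from the Ext2 region. At Cldn1 it lay 404.1 kb away. Both printed members without the match scored above all 4 printed members with it in the first library, and in the second library too. The stretches are the strongest of sets of unlike size and were picked with their values known, so this order does not compare the sets. The Psmd6 window came within 1 mismatch of the core motif and the Dpp8 window within 2.

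Over all promoter windows that held a region (250 bases before to 50 after a listed start), the core motif was found in 29 of 159 member windows (18.2%, 95% Wilson interval 13.01 to 25.0) and in 87 of 359 windows with both Rad21 peaks (24.2%, 20.1 to 28.9). The member share was lower by 5.99 percentage points, with a half-width of the 95% interval (normal approximation) of 7.46 points, so the interval of the difference includes 0. Among all 32817 listed promoter windows the share was 2.43%. The looser form, which frees the A of the leading CCA and so includes every match to the core, was found in 46.5% of member windows, 48.5% of windows with both Rad21 peaks and 8.61% of all windows. With 1 mismatch to the core allowed, the shares were 70.4%, 74.7% and 30.6%. The median observed over expected CpG was 0.614 in member windows against 0.688 with both Rad21 peaks and 0.383 over all windows. Their median GC content was 57.3%, against 59.0% and 52.7%. A match is a description of the letters and does not show which bases CTCF occupied.

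CTCF regions without Rad21 were mostly the weaker ones of the CTCF lists. Their median score was 23 in the first CTCF library and 32 in the second, whereas regions with both Rad21 peaks had medians of 47 and 95. Between the quartiles the member scores ran from 15 to 35 in the first library and from 22 to 51 in the second. The corresponding quartiles with both Rad21 peaks were 35 to 58 and 66 to 125, so in the second library the interquartile ranges did not overlap. The ranges themselves did, since members reached 251 and 285. As a percentile within each list, averaged over both CTCF libraries, the member median was 36.6 (quartiles 22.9 to 54.9) against 76.8 (62.9 to 87.5), a difference of 40.2 percentile points. Each library alone gave the same order, with medians of 34.4 and 74.2 in the first and 40.8 and 81.1 in the second. The classes with a single Rad21 library lay between, at 54.0 for the second library only and 51.9 for the first only. With 2 CTCF libraries no test over libraries was made, and regions are not replicates.

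The share without Rad21 differed along the whole range of CTCF strength. When the regions were divided by mean percentile into 10 bins of equal size, 77.5% of bin 1, the weakest, had no Rad21 peak (1927 of 2488), and this share was lower in each stronger bin down to 5.91% in bin 10 (147 of 2487). The share with both Rad21 peaks went from 2.13% to 79.9% over the same bins. Of the 8248 members, 1783 (21.6%) lay in the 5 stronger bins. Among the 1000 highest-ranked CTCF regions, 95 (9.5%) were members when ranked by the first CTCF library and 54 (5.4%) by the second. Among the top 100 there were 16 and 3. The 16 included neighbouring regions within a short stretch of chromosome Y, so they are not 16 separate places. Those starting at 90799223, 90803477 and 90807638 scored 251, 242 and 239 in the first library and 203, 195 and 191 in the second. The medians of the whole CTCF lists had the opposite order, 32 in the first and 42 in the second.

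**Figure D1:**
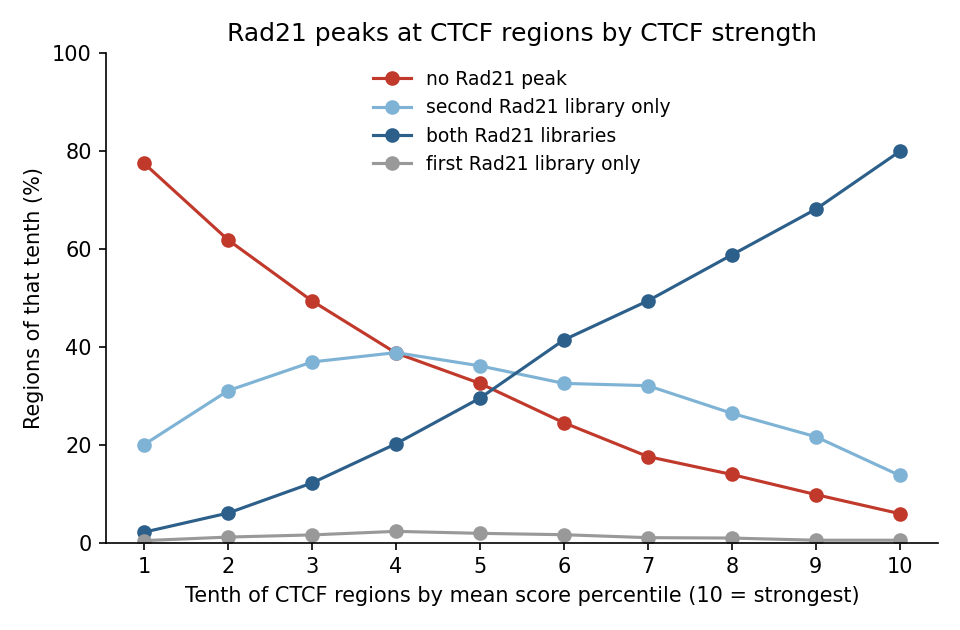
Share of CTCF regions (y axis, percent of the regions in each bin) with no Rad21 peak, a peak of both Rad21 libraries, or a peak of 1 Rad21 library only, in 10 bins of mean CTCF score percentile (x axis, 10 is the strongest). The line of regions without Rad21 descends from 77.5% to 5.91% and that of regions with both peaks climbs from 2.13% to 79.9%.

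The strongest members by mean percentile showed how far an exception could go. First of these was a region 0.128 kb from Med4, a subunit gene of the Mediator complex, at chr14:73509760-73510107, with scores of 153 and 280. Its nearest Rad21 peaks lay 14.6 kb away in both libraries. Next was a region inside Exd1, a gene of the piRNA pathway, at chr2:119546936-119547279, with scores of 134 and 271. A peak of the second Rad21 library began 0.223 kb from its edge. A member inside Zfp516, a zinc finger gene, at chr18:82953816-82954159 (98 and 222) was even closer to Rad21 peaks, with gaps of 0.031 and 0.021 kb in the first and the second library. The member inside Opalin, an oligodendrocyte gene, at chr19:41071547-41071890 (134 and 200) lay 14.8 kb from Rad21 in both. The strongest 10 also included the Psmd6 region, a region 1.19 kb from Dus3l, a gene of tRNA modification (86 and 197), and one 83.8 kb from Gm14444 on chromosome 2 (111 and 212), 256.7 kb from the nearest peak of the second Rad21 library. The remaining 3 stood close together on chromosome Y, starting at 90799223, 90803477 and 90807638, with scores of 251 and 203, 242 and 195, and 239 and 191. Peaks of the second Rad21 library lay only 5.38, 1.13 and 2.39 kb from them. The nearest peak of the first lay 90540, 90544 and 90548 kb away.

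Near the threshold the classes ran into each other. The member closest to Rad21, in Cog5, a gene of the Golgi complex, at chr12:31654943-31655320 (scores 20 and 25), missed a peak of the second Rad21 library by 2 bases. The next, beside Mdh1, a malate dehydrogenase gene, at chr11:21571762-21572105 (11 and 22), missed one by 3 bases, printed as 0.003 kb. Just outside, the region at chrY:90744637-90744980 (29 and 54) and the one 0.373 kb from 4833439L19Rik at chr13:54565580-54565923 (31 and 68) overlapped a Rad21 peak of the second library only, the smallest such overlap being 2 bases. In all, 52 members lay within 100 bases of a Rad21 peak, and 26 other regions overlapped one by at most 50 bases.

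Away from this edge most members lay some kilobases from the nearest called Rad21 peak. The median gap to the nearest Rad21 peak of either library was 18.2 kb (quartiles 5.93 to 53.4). A Rad21 peak lay within 1 kb of 469 members (5.69%), within 10 kb of 2921 (35.4%) and within 100 kb of 7007 (85.0%). The median gap was 21.2 kb in bin 1, between 16.3 and 19.8 kb in bins 2 to 7, and 5.44 kb in bin 10. The share with Rad21 within 10 kb was 28.0% in bin 1 and 64.6% in bin 10. The centres of the 2 CTCF peaks of a member lay a median of 23 bases apart, against 16 with both Rad21 peaks, and within bins the member offset was the wider in 5 of 10.

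A smaller share of members than of regions with both Rad21 peaks lay at the ends of genes. The centre of 1050 members (12.7%, 12.0 to 13.5) lay within 1 kb of either end of an annotated gene, against 1526 of the latter (16.7%, 15.9 to 17.5). Among regions with the second Rad21 library only the share was higher still, 1464 regions or 20.4% (19.4 to 21.3), so the share did not follow the number of Rad21 libraries. Starts listed with their strand showed the same order. Off chromosome 18, for which no start was listed, 534 of 8051 members (6.63%) lay within 1 kb of a start, compared with 813 of 8877 (9.16%) with both Rad21 peaks and 12.1% with the second only. The difference sat before the start, where 4.10% of members stood against 6.47%. After the start the shares were 2.53% and 2.69%, with intervals that overlap. Intervals cover counting error only, and neighbouring regions are not independent.

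**Figure D2:**
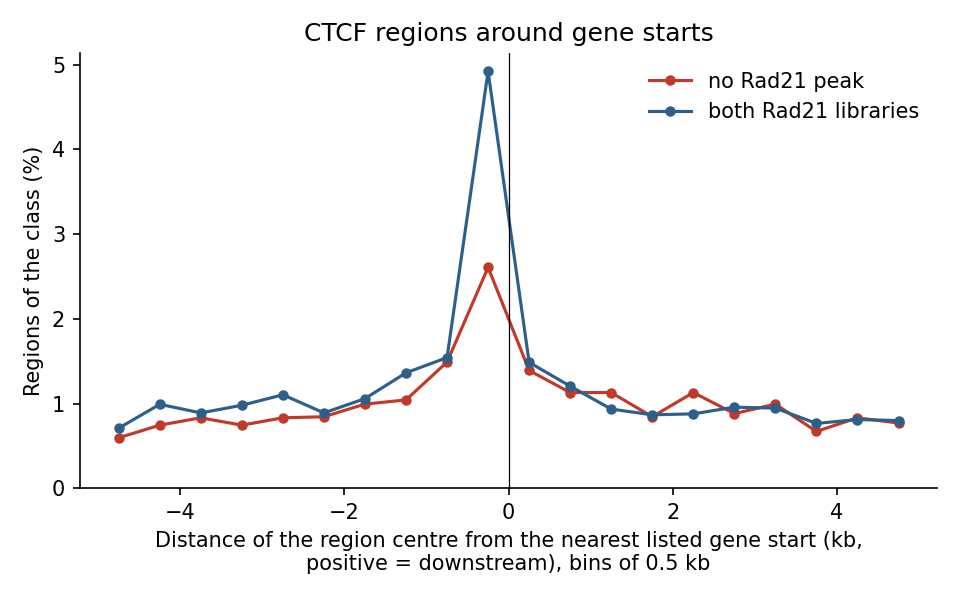
Distance of the region centre from the nearest listed gene start (x axis, kb in bins of 0.5 kb, positive is downstream) for CTCF regions without Rad21 and with both Rad21 peaks (y axis, percent of the class). Both lines peak in the 0.5 kb before the start, where the class with both Rad21 peaks reaches 4.92%, and run close together elsewhere.

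This difference changed along the range of CTCF strength. Within the 10 bins, the member share at gene ends was higher in 4 and lower in 6, by -7.28 to 6.75 percentage points. The mean over bins was -0.142, against -3.96 points without bins. Each bin counts equally in that mean, with 1927 members in bin 1 and 147 in bin 10. Differences of opposite sign cancel in it. In bin 1, 9.70% of members lay at gene ends against 17.0% of the 53 regions with both Rad21 peaks. In bin 10 the order was turned, with 26.5% against 19.8%. Taking the regions of the second CTCF library alone also turned it, to 2.05 points higher in members.

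Inside protein-coding genes lay 4264 members (51.7%) and 4341 regions with both Rad21 peaks (47.5%), a difference of 4.22 points. Within bins the mean difference was -0.544 points. More than 100 kb from any gene lay 84 members (1.02%) and 33 regions with both Rad21 peaks (0.361%). The strongest member that far out, at chr13:39440906-39441249 (scores 50 and 79), stood 480.2 kb from Slc35b3, a membrane transporter gene, and 428.8 kb from the nearest peak of the second Rad21 library. Another, at chr15:21885213-21885556 (51 and 38), lay 287.0 kb from Cdh12, a cadherin gene, and 3529 kb from Rad21 in both libraries. Long genes held the most members: 11 lay in or within 10 kb of Nav2, a neuron navigator gene of 651.0 kb, beside 5 regions with both Rad21 peaks. Cdh13, a cadherin gene of 1185 kb, and Dpp6, which encodes a partner of potassium channels, had 7 members each and 0 regions with both Rad21 peaks. Nrxn3, a neurexin gene of 1612 kb, had 7 and 1.

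In spacing the classes had close medians overall and parted once strength was held. The median distance from a member to the nearest other CTCF region was 16.7 kb (quartiles 6.33 to 42.8), against 15.9 kb (6.62 to 36.8) with both Rad21 peaks, a ratio of 1.05. No other region lay within 100 kb of 839 members (10.2%), compared with 566 (6.19%). Within bins, members had the closer neighbour in 10 of 10 bins. The medians were 22.5 against 26.0 kb in bin 1 and 6.92 against 12.9 kb in bin 10, and the ratio averaged 0.703 over the bins. Of the 147 members of bin 10, 59.9% had another CTCF region within 10 kb, against 41.7% with both Rad21 peaks. At any distance, the nearest other CTCF region held both Rad21 peaks for 62 of the 147 (42.2%), no Rad21 for 48, the second only for 37 and the first only for 0, which allows a share of up to 2.55% (Wilson). For the strongest regions with both Rad21 peaks the nearest region held both in 40.4% of cases.

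**Figure D3:**
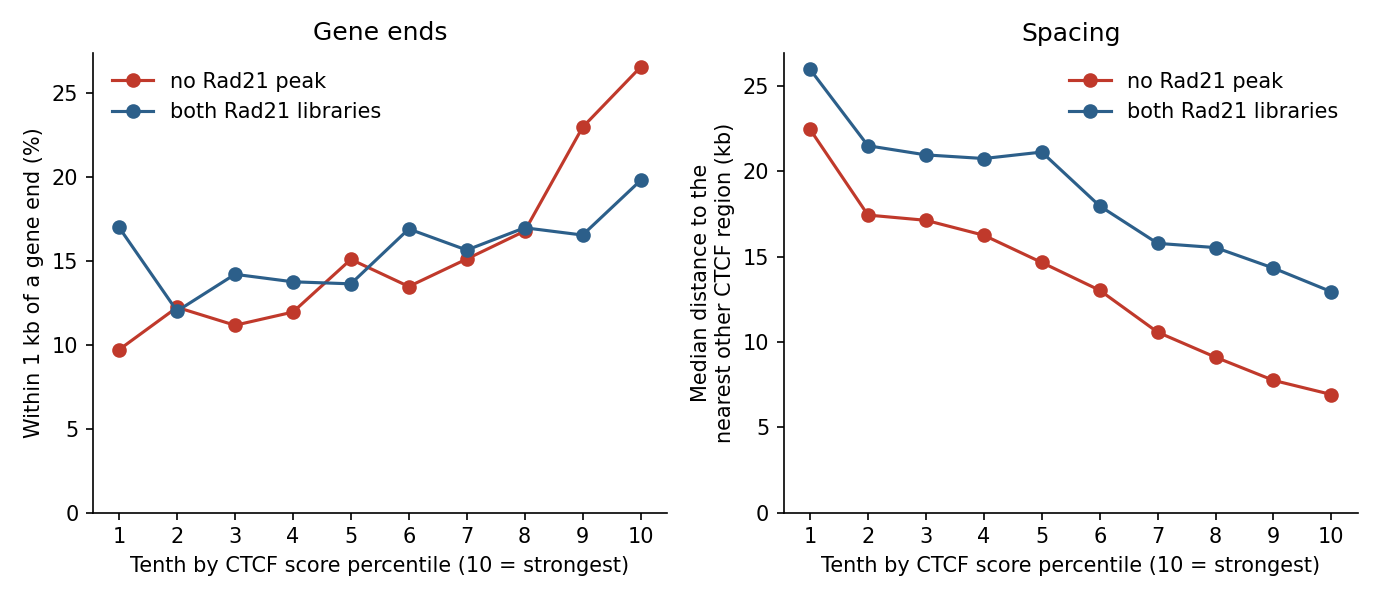
Left, share of regions within 1 kb of a gene end (y axis, percent), and right, median distance to the nearest other CTCF region (y axis, kb), in 10 bins of CTCF score percentile (x axis, 10 is the strongest), for regions without Rad21 and with both Rad21 peaks. On the left the lines cross, from 9.70% against 17.0% in bin 1 to 26.5% against 19.8% in bin 10, and on the right the members lie below in every bin.

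Members that follow each other along a chromosome form runs. The next CTCF region was also a member for 3089 of 8234 (37.5%, 36.5 to 38.6), compared with 33.2% of all regions. The share was 44.3% where the next region was over 100 kb away and 35.3% where it was within 10 kb. Regions with both Rad21 peaks followed each other in 38.5% of cases, against 36.8% of all regions. Single members, with another class on both sides, numbered 3407 (41.3%), and 1076 runs held 2.

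The longest run, 15 members in a row over 1.25 Mb at chr3:92106522-93360448, covered the epidermal differentiation complex, with 14 Sprr and 21 Lce genes of the skin's cornified envelope among 47 protein-coding genes. Member scores there ran from 17 to 54 in the first CTCF library and from 15 to 81 in the second, and the interval held 0 peaks of the first Rad21 library and 1 of the second. A run of 12 members over 4.74 Mb at chr10:100629727-105373606 held only 15 protein-coding genes, among them Mgat4c, a glycosyltransferase gene, Nts, which encodes neurotensin, and Alx1, a homeobox gene. It contained 1 and 4 Rad21 peaks. Runs of 11 members numbered 5, of which the one with the highest median CTCF percentile, over 0.450 Mb at chr15:75019625-75470350, covered 7 Ly6 genes, such as Ly6c1 and Ly6g, which encode surface proteins of blood cells, and no Rad21 peak of either library lay in it. The other 4 lay at chr8:117930733-119380994 with Cdh13 and Hsbp1, a heat shock factor binding protein gene, at chr11:90363430-93856648 with 6 protein-coding genes such as Hlf, a PAR bZIP factor gene, at chr4:127370513-128579565 with 4 such as Csmd2, a synaptic membrane protein gene, and at chr2:147178812-148082664 with Nkx2-2, Pax1 and Foxa2, genes of developmental transcription factors.

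Chromosome X stood apart from the autosomes. Of its 584 CTCF regions, 300 had no Rad21 peak (51.4%, 47.3 to 55.4), whereas the 19 autosomes ranged from 28.3% (chromosome 18) to 37.9% (chromosome 6) and gave 32.7% together. CTCF peaks on X were also weaker, with a median percentile of 42.8 against 58.9 on autosomes. Autosomal regions at the ranks of the X regions gave 44.7%, and the X share was the higher in 10 of 10 bins. Bins 8, 9 and 10 held only 19, 6 and 4 X regions, of which 3, 3 and 1 were members. In bin 3 the shares were close, with 52 of 104 X regions against 49.3% of autosomal regions. The difference was not tested within single bins. The class with both Rad21 peaks made up 13.5% on X and 37.3% on autosomes, and that with the second library only 33.7% and 28.8%. X held 91 peaks (0.868%) of the first Rad21 list and 437 (1.55%) of the second, beside 2.75% and 2.16% of the CTCF peaks. On chromosome Y, 8 of 10 regions were members. Without X and Y the differences in rank, gene ends, gene bodies, spacing, neighbours, receptor clusters and Ldb1 kept their direction.

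**Figure D4:**
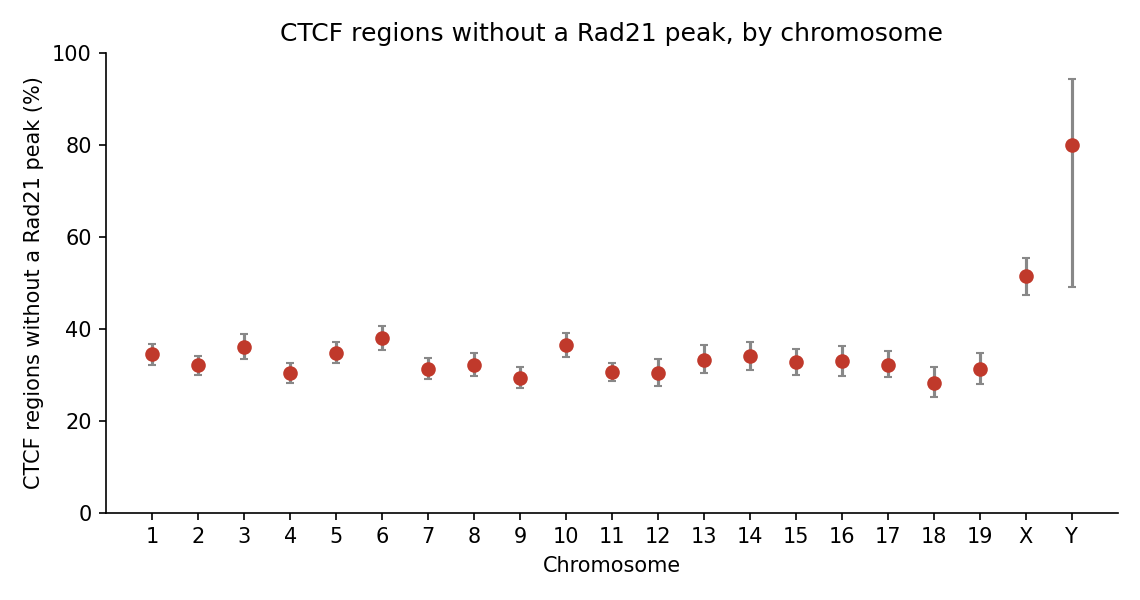
Share of CTCF regions without a Rad21 peak (y axis, percent) on each chromosome (x axis), with 95% Wilson intervals as bars. The autosomes lie between 28.3% and 37.9%, X lies at 51.4%, and Y rests on 10 regions.

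The share of members among CTCF regions in the odorant receptor gene clusters differed with the flanks that were counted. The 43 clusters, runs of at least 3 receptor genes with gaps of up to 300 kb and flanks of 100 kb, span 38.5 Mb and held 190 CTCF regions, of which 71 were members (37.4%, 30.8 to 44.4). Without the flanks, 22 of 45 regions were members (48.9%, 35.0 to 63.0), an interval that lies above the 33.2% of all regions, whereas the interval with flanks holds it. These shares were not matched for CTCF strength, and neighbouring regions are not independent, so the intervals show no excess. With flanks the clusters held 0.861% of members and 0.787% of the regions with both Rad21 peaks. Without flanks they held 0.267% (0.176 to 0.404) and 0.164% (0.0995 to 0.271), with intervals that overlap. The strongest members in clusters all stood at or near other genes in or beside them. They lay by Psmd6, Rdh5, a retinol dehydrogenase gene (80 and 146), Kansl2, a gene of a histone acetyltransferase complex (62 and 144), Ttc5, a p53 cofactor gene (53 and 135), and Trim27, a ubiquitin ligase gene (46 and 116). The strongest within 10 kb of a receptor gene was 5.36 kb from Olfr750 at chr14:51064789-51065132, with scores of 46 and 145, and 1.16 kb from a peak of the second Rad21 library. This region lay outside the clusters and their flanks as counted here.

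Ldb1, which had no part in choosing the members, was found less often at members than at regions with both Rad21 peaks in each of 7 libraries. In the 3 control libraries an Ldb1 peak overlapped 2.52%, 3.02% and 1.30% of members (208, 249 and 107 regions), against 6.19%, 6.96% and 3.37%. In the Lhx2 KO libraries the shares were 0.352% and 0.0121% (29 and 1 regions) against 1.32% and 0.219%. In the Olfr1507+ libraries they were 0.352% and 1.76% (29 and 145) against 0.722% and 4.63%. The libraries differ greatly in length, from 542 to 28879 peaks, and within each one the member share is the lower. Over the 7 libraries the mean was 1.33% ± 1.16 (SD) in members and 3.34% ± 2.69 with both Rad21 peaks, a difference of -2.01 ± 1.54 percentage points, lower in 7 of 7 (two-sided exact sign-flip permutation over libraries, p = 0.015625, which 7 libraries cannot go below). These 7 libraries pool control, Lhx2 KO and Olfr1507+ neurons and were compared on the same regions. Their SD therefore also reflects condition and list length, and is not the spread between replicates of 1 condition. With the same sign in 7 of 7 libraries, p takes its smallest value whatever the size or spread of the differences. The 3 control libraries alone gave -3.23 ± 1.01 points, where the exact test cannot go below p = 0.25. Within bins of CTCF strength the mean difference over the 7 libraries was -2.76 points (exact sign-flip permutation test, two-sided, p = 0.015625). Each bin counted equally in that mean, although bin 1 held 53 of the 9143 regions with both Rad21 peaks and bin 10 held 1987.

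**Figure D5:**
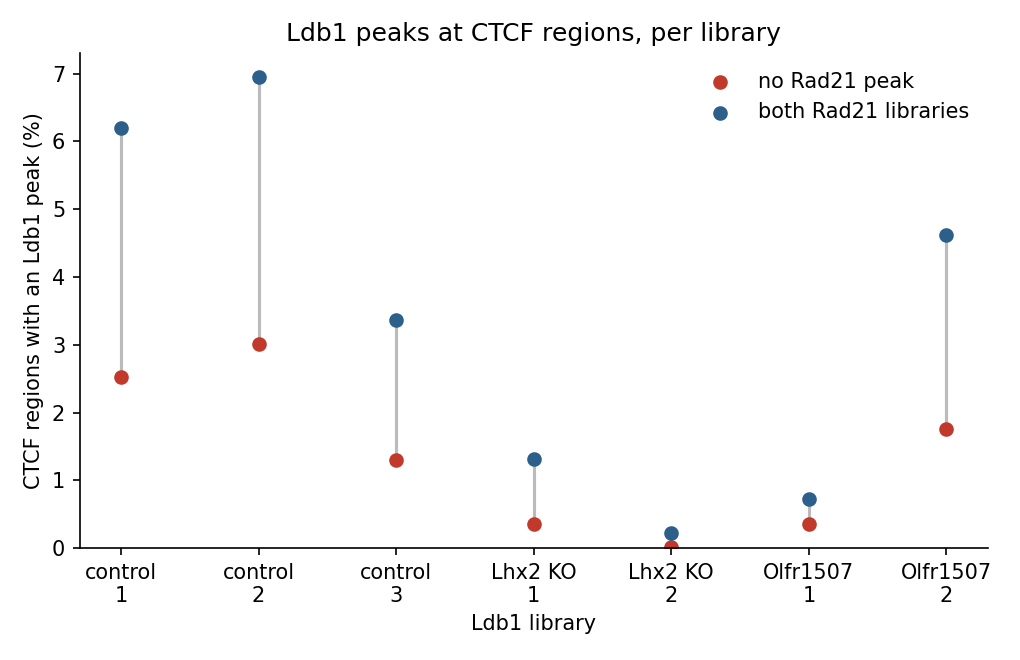
Share of CTCF regions that overlap an Ldb1 peak (y axis, percent) in each of the 7 Ldb1 libraries (x axis), for regions without Rad21 and with both Rad21 peaks, joined by a line per library. The point of the regions without Rad21 is the lower in 7 of 7 libraries.

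The difference in Ldb1 was not the same along the CTCF ranks. A peak of at least 1 control Ldb1 library was found at 289 members (3.50%) and at 766 regions with both Rad21 peaks (8.38%), and the member share was the lower in 8 of 10 bins. In bin 1 it was 2.18% against 17.0%, in bin 9 it was 6.97% against 6.91%, and in bin 10 it was 15.6% against 10.2%. Near gene ends 98 of 1050 members (9.33%) had such a peak, against 13.8% with both Rad21 peaks, and farther away 2.65% had one, against 7.30%. All 3 control libraries had a peak at 97 members (1.18%). Strongest of these was a region 28.5 kb from Tmem33, an endoplasmic reticulum membrane protein gene, at chr5:67231858-67232211 (82 and 145), 183.4 kb from Rad21. Others were at 1700013F07Rik (59 and 166), inside Sorbs2, an adaptor gene of the cytoskeleton (71 and 87), and at Tln1, which encodes talin (58 and 95).

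A member lay in or within 10 kb of 5760 of the 21779 protein-coding genes (26.4%), and a region with both Rad21 peaks of 6592 (30.3%). Gene length bears on these counts, since a long gene meets more regions, and the median gene is 17.2 kb long. Among 24 axon guidance genes, with a median length of 233.6 kb, 14 had a member and 20 a region with both Rad21 peaks. The strongest member was in Nrp2, the neuropilin gene for semaphorin signals, with scores of 77 and 104, 0.265 kb from a peak of the second Rad21 library. Next came Efna3, an ephrin gene (34 and 161), and Ncam2, an adhesion gene of olfactory axons (42 and 60). Among 20 genes of olfactory transduction 9 had a member and 16 a region with both Rad21 peaks. These members include one inside Ric8b, which encodes a chaperone of the olfactory G protein (54 and 58), one inside Pde4a, a phosphodiesterase gene (44 and 71), and one near Omp (31 and 72). Of 22 regulators of olfactory neuron transcription 7 had a member and 13 a region with both Rad21 peaks. Nuclear factor I genes led them, with Nfia at 40 and 86, Nfix at 30 and 87 and Nfib at 22 and 46. The centre of the region counted for Nfix lay inside the neighbouring gene Lyl1 and not in Nfix. Immature neuron markers had 5 of 12 against 9, led by Stmn1 (50 and 110) and Stmn2 (63 and 61), which encode regulators of microtubules. Presynaptic genes had 9 of 20 against 13.

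In the next lists the counts of both classes were within 3 genes of each other. Their median gene lengths ran from 3.18 kb for ribosomal protein genes to 45.4 kb for the CTCF and cohesin machinery. Short genes did not always go with close counts. Markers of the other cells of the epithelium, with a median length of 12.3 kb, had 4 of 25 against 11. Ribosomal protein genes had a member in 28 of 86 and a region with both Rad21 peaks in 28, with Rpl38 leading and Rpl37a next (82 and 97). Hox genes, which pattern the body axis, had 16 of 39 against 17, the strongest member lying inside Hoxa10 (50 and 86). Housekeeping genes had 6 of 16 against 6, led by Eef2, an elongation factor gene (48 and 141). Immediate early genes, which respond to activity, also had 6 of 16 against 6. The member within 10 kb of Nr4a1, a nuclear receptor gene of that list, reached 69 and 208, with Rad21 gaps of 0.257 and 0.220 kb, and that in Fosb, a gene of the AP-1 factor, reached 51 and 137. Imprinted genes had 12 of 43 against 15, with the strongest member inside Peg3 (34 and 84). Members lay near 9 of 25 genes of the CTCF and cohesin machinery, against 10.

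Clustered protocadherins, whose alternative promoters are known to be chosen with CTCF and cohesin, had a member near 21 of 57 genes, against 16. These 21 genes share 4 distinct members, since the genes of a cluster overlap. The one that leads by rank, at chr18:37761473-37761816, was weak, with scores of 18 and 30. Odorant receptor genes had a member near 19 of 1106 (15 distinct regions), against 16, and vomeronasal receptors near 2 of 350, against 0. Trace amine receptors had 4 of 15 against 2, and genes of the X inactivation centre 2 of 11 against 3. Markers of the other cells of the epithelium had 4 of 25 against 11, with the strongest member 9.08 kb from Sox2, a transcription factor gene of stem cells (62 and 80). Of single genes looked up, Ctcf, H19, Omp, Ldb1 and Pcdhgc3 had 1 member each within 10 kb, and Rad21, Igf2, Xist, Lhx2 and Olfr1507 had 0. The lists are described by their counts, and none was tested.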

How the data were processed

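Each deposited list holds the peaks of 1 library of fixed, sorted cells. The score column is a whole number per peak as deposited by the authors. The submitters' processing notes name HOMER 4.7, Picard, SAMtools 1.3.1, Bowtie2 2.3.2, cutadapt 1.9.1, STAR 2.5.3a and the build mm10 without their roles. The sources used here do not give the peak threshold, control or filters, and read depth is unknown.

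Peaks were linked, classed and measured in Python 3.11.15 with numpy 2.4.6 and pandas 2.3.3. Distances to genes and to other CTCF regions run from region centres, and gaps to Rad21 peaks from region edges. Genes came from a RefSeq table of GRCm38.p6 (49603 genes), which gives no strand, so either end of a gene counted as its end. Left out were 340 genes, not on chromosome Y, whose coordinates end before 3 Mb. They were taken to be scaffold genes. Starts came from the RefSeq promoter table (27025 genes, 32817 windows), which lists none on chromosome 18. CTCF strength is the percentile of the score within each list, averaged over both lists. Means within bins of CTCF strength give each bin the same weight. Shares have 95% Wilson intervals. The 7 Ldb1 libraries were compared by an exact sign-flip permutation test. The region, distance and sign-flip functions were tested on simulated data.

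Members, gene lists and named items were chosen with earlier results of these data known. Named were the 10 strongest members, the 5 strongest at gene ends, over 100 kb from genes, with Ldb1 in all 3 control libraries and in receptor clusters, up to 3 genes per list, the 3 longest runs (of 5 tied at 11 members, the one with the highest median percentile; the other 4 were added later), the regions nearest to the threshold and 10 genes always looked up. Not every item so chosen is printed. The printed promoters and the genes with most members are outside this rule and were picked with their values known. The input and RNA samples were not analysed here.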

Additional observations from a re-analysis of the deposited data

How the results depend on the processing

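Depth is unknown, so an absent Rad21 peak sets no limit on cohesin, and the share of CTCF regions without Rad21 moved most with the Rad21 lists. It was 33.2% as reported, 33.8% with a reciprocal overlap of at least 50%, 31.3% with no Rad21 peak within 1 kb, 56.1% with the second Rad21 list limited to the length of the first, 15.0% for the higher-scoring part of each CTCF list and 34.2% without regions that hold a control Ldb1 peak. Leaving out 1 library at a time gave 34.3% to 62.1%, the highest without the second Rad21 library. The rank difference of -40.2 percentile points was -36.5 with the shortened Rad21 list, -22.5 for the higher-scoring part of each CTCF list, and -52.0 to -31.0 without 1 library.

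The gene end difference of -3.96 points was -5.15 with no Rad21 within 1 kb, -2.54 with the shortened list, -0.291 for the higher-scoring part, -6.17 within 5 kb of an end, -0.142 within bins, -2.87 for protein-coding genes and -2.53 for listed starts, the last pair chosen after seeing the data. Without 1 library it ranged from -5.58 to 2.05. It was -0.283 without the second Rad21 library and reversed without the first CTCF library. The gene body difference of 4.22 points was 0.606 for the higher-scoring part, -0.544 within bins and 1.48 to 8.58 without 1 library. The spacing ratio of 1.05 was 1.11 with the shortened list, 0.664 for the higher-scoring part, 0.703 within bins (chosen after seeing the data) and 1.03 to 1.14 without 1 library. The excess of same-class neighbours, 4.36 points, was 6.23 with no Rad21 within 1 kb, 2.38 with the shortened list, 6.83 for the higher-scoring part and 1.05 to 4.67 without 1 library. The receptor cluster difference of 0.0733 points was -0.107 for the higher-scoring part and -0.0501 to 0.156 without 1 library, negative without the second Rad21 library. The Ldb1 difference of -2.01 points was -2.31 to -1.24 without 1 library, and leaving out 1 Ldb1 library raises the smallest p of the exact permutation test to 0.03125. The core motif difference of -5.99 points was -13.4 to -0.618 without 1 library. The cause of these changes was not tested. No paired analysis was possible because no groups of samples are compared with each other by replicate number. The CTCF and Rad21 lists together define classes of regions, and the Ldb1 test already takes the difference of both classes within each library.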
